A study of Canis lupus familiaris with 33 samples.

Results

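Among the genes that fresh-frozen canine oligodendroglioma expressed, 54 were near silent in fresh-frozen control brain. They were picked from a table of 30951 genes by their CPM (a gene's share of the library total, scaled to 1000000 counts). A gene had to average under 0.5 CPM over 6 fresh-frozen controls and at least 2 CPM over 6 fresh-frozen tumours, with at least 1 CPM in 4 or more of those tumours. Only genes on 24 of the chromosomes, with at least 2 distinct exons and a span under 500 kb, were considered. That left 13082 genes, of which 6546 met the same tumour thresholds whatever their control level, so the 54 made up 0.825% of them. The selection used the difference between fresh-frozen tumour and control, so those values are given below as a description only. Tests of tumour against control were made in formalin-fixed, paraffin-embedded (FFPE) tissue of dogs that gave no frozen library.

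Oligodendroglioma is a brain tumour whose cells resemble the glia that make myelin, and among dogs it is seen above all in short-nosed breeds such as the Boxer and the French Bulldog. Genes that a tumour transcribes while the healthy organ barely does are of interest as tumour-associated antigens, since an immune response to them would spare the organ. In whole tissue such transcripts can come from the tumour cells, from vessels or from immune cells that enter the tumour. Fixation in formalin cross-links and breaks RNA, so FFPE libraries usually hold fewer usable molecules than frozen ones.

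The study sequenced total RNA in 33 libraries of 25 dogs, with brain removed at necropsy 1 to 18 hours after death. The selection groups were 6 fresh-frozen tumours (3 French Bulldogs and 1 each of Boxer, Border Terrier and Pomerian; 1 of grade II and 5 of grade III; 4.7 to 10 years old where the age of 5 dogs is given) and 6 fresh-frozen control brains described as healthy. The controls were 2 French Bulldogs and 1 each of Hovawart, Mongrel, Berner sennenhund and Bolonka Swetna, aged 2.8 to 10.2 years where given for 5 dogs. The test groups were 6 FFPE tumours (3 Boxers, 3 French Bulldogs; 1 of grade II, 5 of grade III; 5.3 to 12 years old) and 7 FFPE controls (4 Boxers, 3 French Bulldogs; ages of 2 and 4 years given for 2 dogs only). Age and tumour cannot be told apart in the test groups. Of the dogs in the selection groups, 5 with tumours and 3 controls had an FFPE library as well as the frozen one. Each dog gave 1 library of a kind, and no dog was in both a tumour and a control group.

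Total counts ran from 9765907 to 25168080 in fresh-frozen tumours, against 15255966 to 26726025 in fresh-frozen controls, and from 1752162 to 5704466 in the tested FFPE tumours, against 406406 to 4333170 in the tested FFPE controls. Some libraries stood apart from their groups over genes outside the set. A position was computed for each library over 14412 other genes, with 0 at the mean of the controls of the same preservation and 1 at the shift between fresh-frozen tumours and controls. The tested FFPE tumours lay between 0.65 and 1.07 except dog 44331, at 0.13, and the tested FFPE controls lay between -0.17 and 0.32, with dog 61478 the highest. The FFPE control of dog 60462 lay at 0.27, and the fresh-frozen control of dog 60516 also lay at 0.27. The FFPE control of dog 50315 was the shallowest library, where 1 count equals 2.46 CPM and 32 of the 54 genes had no count. On the first principal component of the tested FFPE libraries, which held 33.1% of the variance, it lay at 0.894. The other tested libraries lay between -0.207 and 0.133 there. Fresh-frozen libraries of dogs 60126, 60127, 60461 and 60462 separated from the other 8 on the second principal component of the frozen libraries, which held 26.98% of the variance. Without these 4 libraries, asking for 1 CPM in at least 3 of the remaining tumours, 59 genes met the selection, 40 of them among the 54.

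**Figure D1:**
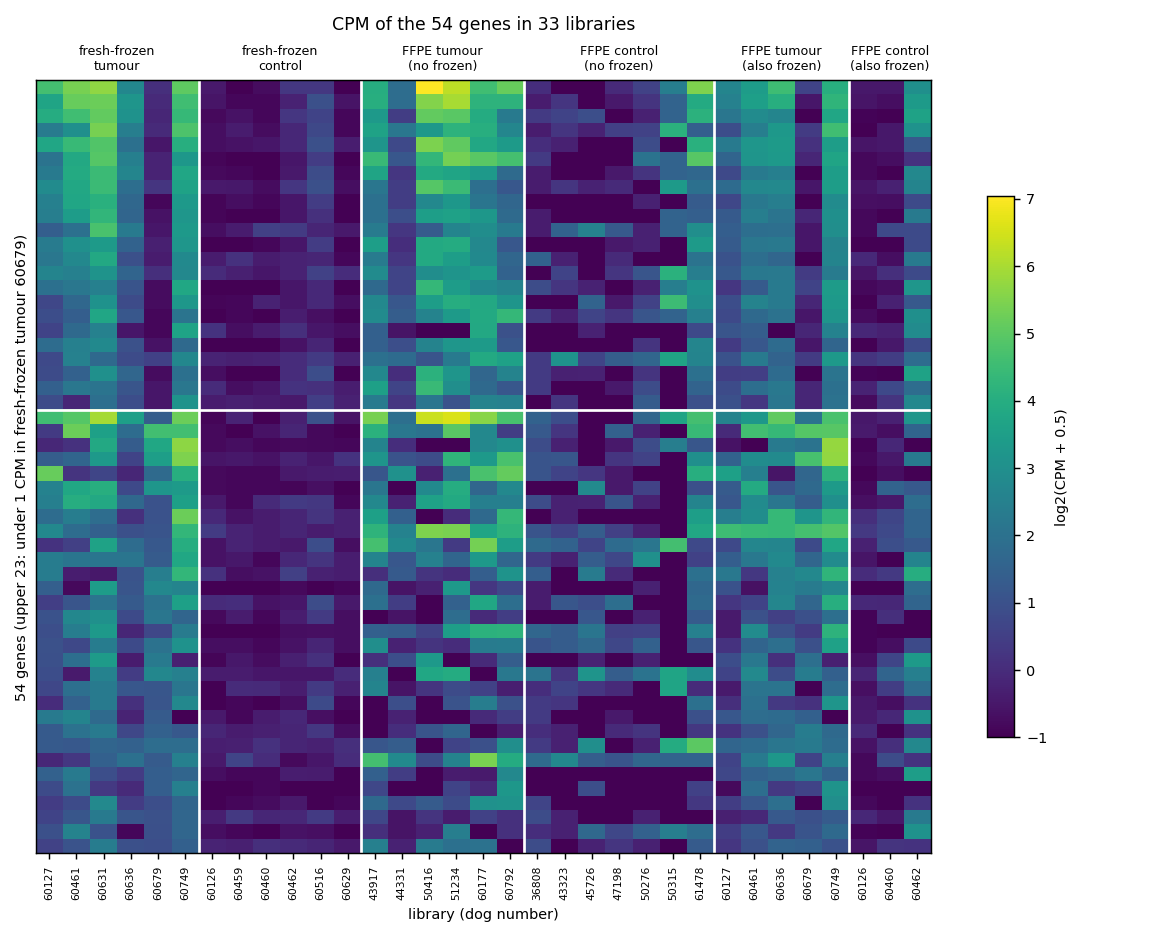
CPM of the 54 genes (rows) in 33 libraries (columns, by dog number), coloured as log2(CPM + 0.5). The upper 23 rows are the genes under 1 CPM in the fresh-frozen tumour of dog 60679, the lower 31 rows are the others, and white lines separate the 6 groups; the FFPE control column of dog 61478 is bright through most rows, with 46 genes at 1 CPM or more.

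In frozen tissue the set summed to 247, 411, 657, 129, 134 and 639 CPM in the tumours of dogs 60127, 60461, 60631, 60636, 60679 and 60749. The sums were 9.84, 10.2, 9.37, 18.3, 33.4 and 8.55 CPM in the controls of dogs 60126, 60459, 60460, 60462, 60516 and 60629. The groups did not overlap, as the selection made likely. Dog 60516 was the highest control, with 11 of the 54 genes at 1 CPM or more, against 0 or 1 in the other controls. Leaving out single libraries changed the number of genes selected to between 39 (without the tumour of dog 60631) and 75 (without the control of dog 60516).

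Most members were expressed at a low level. Their means over the fresh-frozen tumours ran from 2.06 to 27.6 CPM with a median of 4.48 CPM, and their means over the fresh-frozen controls from 0.00858 to 0.495 CPM with a median of 0.298 CPM. Per kilobase of exon, the mean tumour level ran from 0.494 to 17.5 CPM per kb with a median of 2.63. Of the 54 genes, 12 reached 1 CPM in all 6 tumours, 29 in 5 and 13 in 4.

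The gene with the highest level, at chr17:7104961-7122939, averaged 27.6 ± 21.1 CPM in fresh-frozen tumours and 0.401 ± 0.562 CPM in fresh-frozen controls (SD, n = 6 each here and for the following frozen means). It was followed by the gene at chr30:28835811-28847057, with 26.1 ± 19.96 CPM in tumours and 0.299 ± 0.346 CPM in controls, and the gene at chr17:36932810-36973248, with 19.6 ± 14.95 CPM in tumours and 0.376 ± 0.534 CPM in controls. Genes at chr8:30994402-31036540 (16.9 ± 11.8 CPM in tumours), chr32:17121968-17196851 (16.7 ± 14.1), chr7:41382994-41419742 (14.4 ± 16.3), chr25:29787132-29811112 (13.7 ± 10.6), chr38:17956961-18109049 (13.5 ± 19.1), chr24:32612386-32624567 (11.7 ± 16.3), chr24:33128335-33132023 (10.2 ± 10.5) and chr11:25825747-25833985 (10.0 ± 7.92) were the others with a mean of at least 10 CPM. The remaining 43 genes averaged under 10 CPM. Of the 20 highest, per kilobase of exon, the gene at chr24:33128335 had the highest level, with 17.5 CPM per kb over an exonic length of 584 bp.

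Single tumours often dominated. The standard deviation over the 6 tumours was 0.836 times the mean for the median gene, and for 11 genes more than 50% of the summed tumour CPM came from 1 tumour, 7 times from dog 60749 and 3 times from dog 60631. The most uneven gene, at chr21:9649056-9661643, had 73.7% of its summed tumour CPM in dog 60749, and the genes at chr24:46998138-47016401 and chr38:17956961-18109049 had 62.5% in dog 60127 and 62.3% in dog 60749. The most even genes were those at chr4:29430127-29434688, with 2.50 ± 0.586 CPM in the tumours and 0.421 ± 0.137 CPM in the controls, at chr3:64874557-64875259, with 2.55 ± 1.23 CPM in the tumours and 0.370 ± 0.203 CPM in the controls, and at chr34:17141494-17148444, with 2.74 ± 1.38 CPM in the tumours and 0.392 ± 0.261 CPM in the controls.

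The thresholds cut through a continuous range. Just inside the control limit were genes with control means of 0.495 CPM (chr32:1696681), 0.486 CPM (chr11:12943432) and 0.477 CPM (chr4:50198424), and just outside it were genes at 0.5003 CPM (chr38:23346695), 0.502 CPM (chr4:38002428) and 0.504 CPM (chr17:18560240). At the tumour limit, means of 2.06 CPM (chr28:23303939), 2.10 CPM (chr29:23732339) and 2.18 CPM (chr32:1696681) were inside, and means of 1.94 CPM (chr34:10207662), 1.90 CPM (chr27:37715272) and 1.90 CPM (chr25:36993710) were outside.

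**Figure D2:**
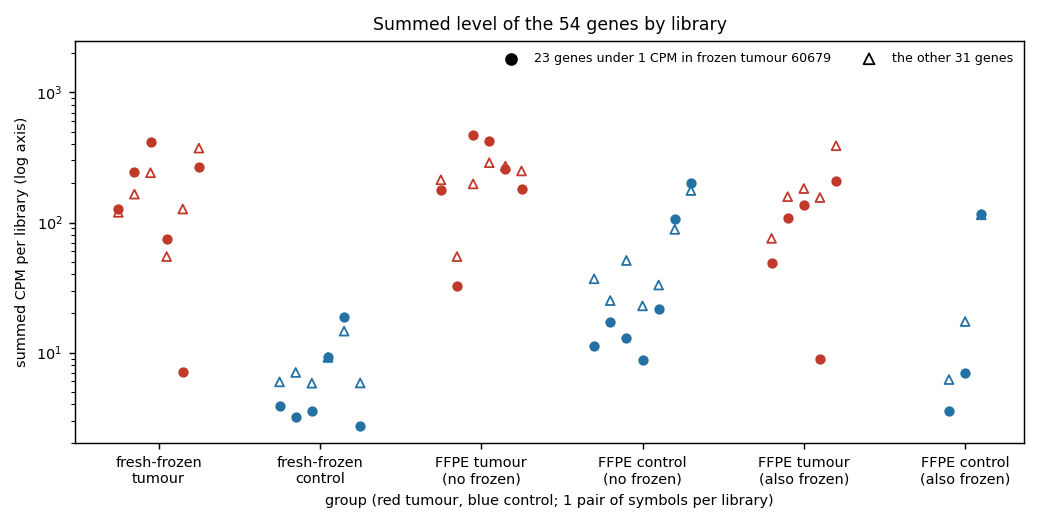
Summed CPM per library (log axis) in the 6 groups, with red for tumours and blue for controls; filled circles are the 23 genes under 1 CPM in the fresh-frozen tumour of dog 60679 and open triangles the other 31. The FFPE controls spread over a wider range than the frozen controls, and the filled circles of the frozen and FFPE tumour of dog 60679 lie at 7.04 and 8.86 CPM, far under their triangles.

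In the FFPE libraries of dogs without a frozen library, the set was higher in most tumours than in most controls, and the groups overlapped. The sums were 392.1, 87.5, 666, 711, 527 and 430 CPM in the tumours of dogs 43917, 44331, 50416, 51234, 60177 and 60792. They were 48.2, 42.4, 64.1, 31.6, 54.6, 194 and 378 CPM in the controls of dogs 36808, 43323, 45726, 47198, 50276, 50315 and 61478. The tumour of dog 44331 lay under the controls of dogs 50315 and 61478, and the other 5 tumours lay above all 7 controls. In bulk tissue, fewer cells that express a gene and less of its RNA per cell cannot be told apart.

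In FFPE controls near silence held for a minority of the genes, and the number depended on 1 library. Of the 54 genes, 10 averaged under 0.5 CPM over the 7 FFPE controls (9 with their counts pooled), while 23 averaged 2 CPM or more. Without the control of dog 61478, 21 averaged under 0.5 CPM (22 pooled) and 13 averaged 2 CPM or more, and without that of dog 50315 as well, the numbers were 23 and 7. In the 6 FFPE tumours 45 of the 54 averaged 2 CPM or more. The number of the genes at 1 CPM or more was 47, 28, 36, 44, 43 and 46 in the tumours, in the order of dogs above, and 18, 14, 19, 11, 15, 22 and 46 in the controls. A single count corresponds to 0.231 to 2.46 CPM in these controls, against 0.0655 CPM or less in the frozen controls, so a value near 1 CPM in a single FFPE control rests on few counts. The 7 FFPE controls held 21389364 counts together. The highest control was the library of dog 61478 for 31 genes and that of dog 50315 for 11.

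Gene by gene, the direction was tumour over control for nearly the whole set. The mean CPM of the tumours exceeded that of the controls for 50 of 54 genes (92.6%), against 50.2% of 26684 genes with a count in these libraries, and the median CPM for 52 of 54 (96.3%), against 39.1%. The tumour mean was at least 4 times the control mean for 30 genes (55.6%), against 10.1% of all genes. In Boxers alone (3 tumours, 4 controls) the tumour mean was higher for 47 of 54 genes (87.0%, against 48.6% of all), and in French Bulldogs (3 tumours, 3 controls) for 51 (94.4%, against 44.7%). Without any 1 library the number was between 48 and 51, and without the controls of dogs 61478 and 50315 it was 53. Only the gene at chr7:2264109-2277976 had every tumour above every control (1.85% of the set, against 0.322% of all genes).

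**Figure D3:**
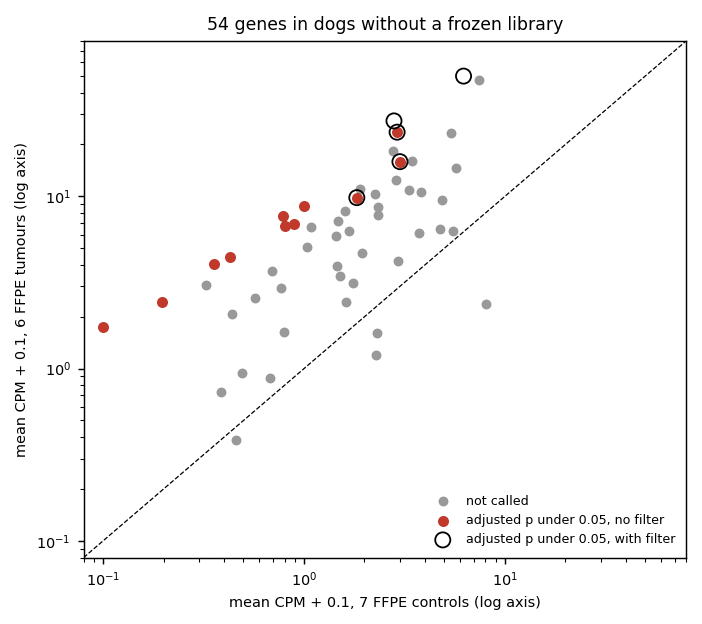
Mean CPM + 0.1 of each of the 54 genes in the 6 FFPE tumours (vertical, log axis) against the 7 FFPE controls (horizontal, log axis) of dogs without a frozen library, with the line of equality dashed. Of the 54 points, 50 lie above the line; red points passed the test without a filter on low counts, and black rings mark the 5 that passed with it.

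The test was edgeR's quasi-likelihood test of these 6 tumours against the 7 controls, with Benjamini-Hochberg adjustment over every gene tested. With no filter on low counts all 54 genes could be tested: 11 rose in the tumours at an adjusted p under 0.05 and 0 fell, where 1.53% of 26684 genes were called higher and 2.29% lower. At an unadjusted p under 0.05 the counts were 26 higher and 0 lower, beside 9.95% of all genes higher and 10.9% lower, and DESeq2 without the filter called 19 of 49 genes higher and 0 lower (8.41% and 7.73% of all genes). The median log2 fold change of the 54 was 2.08, against 0.00 over all genes, and it was 3.16 without the control of dog 61478 and 3.36 without the controls of dogs 61478 and 50315. With the filter that edgeR recommends, 20 of the 54 genes stayed in, of which 5 rose and 0 fell, beside 4.01% of 13132 genes called higher and 5.51% lower. The filter counted libraries at 2.95 CPM or more, whatever their group, and each of the 20 genes had a control at that level. Genes at that level in 5 tumours and 0 controls were dropped, while those at it in 5 tumours and 1 control stayed in. The filter thus removed some genes that were under that level in every control, so the share among those 20 is not a share of the set.

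The libraries that stood apart moved these counts. The fits without them and with no filter were added after their values were seen. The control of dog 61478 had the highest sum of the set among the tested controls, and the tumour of dog 44331 the lowest among the tested tumours. Leaving out either widens the difference by construction, so calls gained that way add no support for it. Without the control of dog 61478, 29 of the 54 genes rose in the fit with no filter, where 3.36% of all genes were higher and 2.79% lower. Without that control and the shallow control of dog 50315, 31 of the 54 rose (3.27% of all genes higher, 2.71% lower). Without the tumour of dog 44331, 17 rose (3.53% of all genes higher, 5.69% lower), and without the control of dog 50315 alone, 12 (1.28% higher, 2.27% lower). In these 4 fits 0 of the 54 fell. Leaving out any other library with no filter gave 6 to 11 calls among the 54, the fewest without the control of dog 47198 (0.601% of all genes higher), followed by 7 without the tumour of dog 60177 (0.652%). In the fit with the filter, the number of set genes tested changed with the library left out. Without the tumour of dog 60177, 1 of 22 was called, where 1.26% of all genes were higher. There were 2 calls of 20 without the control of dog 47198 (1.26%) or 50276 (1.19%). There were 3 of 20 without the tumour of dog 51234 (1.68%) or the control of dog 36808 (2.08%) or 43323 (2.03%). Without the control of dog 45726 there were 3 of 19 (2.49%). Without the control of dog 61478 there were 6 of 11 (6.56%), and without the tumour of dog 44331 there were 14 of 26 (8.87%). The share over all genes was below the 4.01% of the fit with all libraries in each of these fits, except those without dog 61478 or dog 44331.

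The gene with the smallest adjusted p in the filtered fit was ENSCAFG00000005321, on the minus strand at chr16:21903421-21905225 of CanFam3.1, with 2 exons. It had 18.3, 5.43, 44.5, 42.2, 12.7 and 17.7 CPM in the tumours of dogs 43917, 44331, 50416, 51234, 60177 and 60792. It had 1.61, 1.02, 2.11, 0.923, 0.331, 0 and 13.7 CPM in the controls of dogs 36808, 43323, 45726, 47198, 50276, 50315 and 61478. The control of dog 61478 was above 2 tumours, and the other 6 controls were under all 6 tumours. The log2 fold change was 2.97 ± 0.71 (SE; edgeR adjusted p = 0.0195), and without the control of dog 61478 it was 4.33. With no filter the adjusted p was 0.0319. In that fit it lay between 0.0523 and 0.06975 without the tumour of dog 50416, 51234 or 60177 or the control of dog 36808, 43323, 45726, 47198 or 50315. In frozen tumours it ran from 1.46 to 19.6 CPM with a median of 2.65, against 0.257 to 0.823 CPM in frozen controls with a median of 0.359. In the 5 tumour dogs with both kinds of library the FFPE tumours had 20.2 to 28.9 CPM. The FFPE controls of dogs 60126, 60460 and 60462 had 0.767, 1.21 and 2.51 CPM. The frozen libraries of these 5 tumours had 1.46 to 19.6 CPM, each below the FFPE library of the same dog.

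The second, ENSCAFG00000013954, lies on the plus strand at chr9:18551373-18562355 and has 15 exons. In the FFPE tumours it ran from 2.10 CPM in dog 44331 to 19.7 CPM in dog 60792 with a median of 8.38 CPM, against 0.339 to 5.12 CPM in the controls with a median of 1.06 CPM. All tumours but that of dog 44331 were above all controls. The log2 fold change was 2.60 ± 0.63 (SE; edgeR adjusted p = 0.0201), and 0.0148 with no filter, where the log2 fold change was 3.31 without the control of dog 61478. Without the tumour of dog 60177 the adjusted p was 0.0557 (0.0516 with no filter), without that of dog 60792 it was 0.0509 with no filter, and with the 8 dogs that have both kinds of library added it was 0.0839 (1.88 on the log2 scale).

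The other 3 genes called with the filter were at chr21:22051920-22057632, chr17:36932810-36973248 and chr17:7104961-7122939. The chromosome 21 gene ran from 1.32 to 42.0 CPM in tumours with a median of 10.7, against 1.62 to 6.11 CPM in controls with a median of 2.46, and its log2 fold change was 2.49 ± 0.63 (edgeR adjusted p = 0.0240). The tumour of dog 50416 was the lowest of all 13 libraries for this gene. Its adjusted p was 0.0614 without the control of dog 47198, 0.0555 without that of dog 50276 and 0.0817 without the tumour of dog 60177, where the log2 fold change was 1.79.

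For the gene at chr17:36932810 the tumours ran from 3.16 to 62.8 CPM with a median of 17.8, against 0 to 14.6 CPM in controls with a median of 0.661. The log2 fold change was 3.34 ± 0.91 (SE; edgeR adjusted p = 0.0313), and the adjusted p was 0.115 with no filter. Without the control of dog 61478 the log2 fold change was 5.88, with adjusted p of 0.00191 with the filter and 1.6e-05 without it. In the filtered fit it lay between 0.0520 and 0.0705 without the control of dog 36808, 43323, 45726, 47198 or 50276 or the tumour of dog 50416, 51234 or 60177. This gene shares exon bases with another annotated gene of the same strand, and fragments in shared bases were left uncounted, so its level is uncertain.

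The gene at chr17:7104961, the highest of the set in frozen tumours, ran from 3.33 to 94.9 CPM in FFPE tumours with a median of 45.2, against 0 to 24.2 CPM in FFPE controls with a median of 2.41. The log2 fold change was 3.20 ± 0.93 (SE; edgeR adjusted p = 0.0396), and the adjusted p was 0.148 with no filter. Without the control of dog 61478 the log2 fold change was 4.75, with adjusted p of 0.00774 with the filter and 0.0289 without it. In the filtered fit it lay between 0.0510 and 0.0891 without the control of dog 36808, 43323, 45726, 47198 or 50276 or the tumour of dog 43917, 50416, 51234, 60177 or 60792. For both chromosome 17 genes the 2 highest controls were those of dogs 61478 and 50315, and the lowest tumour was that of dog 44331.

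The fit with no filter called 8 further genes, all with low control levels. The smallest adjusted p in that fit was 0.00947, for the gene at chr11:25825747-25833985, with a median of 10.9 CPM in tumours (0.701 to 14.2) and 0.268 CPM in controls (0 to 2.68) and a log2 fold change of 3.50 ± 0.78. The gene at chr25:45215380-45230547 followed, with a median of 6.27 CPM in tumours (1.40 to 11.7) and 0 in controls (0 to 2.46), and its log2 fold change was 3.64 ± 0.85 (SE; edgeR adjusted p = 0.0129). For that gene 4 of the 7 controls had no count, so the fold rests on few control counts. Both genes kept their call without any 1 library, and without the control of dog 61478 the log2 fold changes were 4.64 and 5.35.

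The gene at chr7:2264109-2277976, the only one whose groups did not overlap, had 2.85, 1.23, 1.98, 1.30, 7.92 and 8.25 CPM in the tumours in the order of dogs given above. It had 1.07 CPM in the control of dog 36808, 0.732 CPM in that of dog 61478 and no count in the other 5 controls. Its log2 fold change was 3.62 ± 0.88 (SE; edgeR adjusted p = 0.0159). The adjusted p was 0.0664 without the tumour of dog 60177, and the log2 fold change was 4.43 without the control of dog 36808. At the lower end, the tumour of dog 44331 was within 1 count of the highest control, since 1 count in that control equals 0.268 CPM.

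The gene at chr21:47350825-47362149 had no count in any of the 7 controls and 32 counts over the 6 tumours. Its pooled tumour level was 1.46 CPM, at least 10.4-fold higher than the 0.140 CPM that 3 counts over the whole control group would give (edgeR adjusted p = 0.0204). Of the 32 counts 21 came from the tumour of dog 60792, without which the pooled level was 0.595 CPM, at least 4.24-fold higher (adjusted p = 0.0674 in edgeR). The counts came from 5 tumours, from 0.240 CPM in dog 60177 to 6.19 CPM in dog 60792. In dogs with both kinds of library, the FFPE control of dog 60462 had 10.7 CPM of this gene and its frozen control 0.274 CPM.

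The remaining 4 calls were at chr28:7754964-7778481 (log2 fold change 3.22 ± 0.79), chr30:24040859-24063084 (3.38 ± 0.87), chr21:41340969-41357206 (2.88 ± 0.76) and chr11:41566174-41571166 (4.22 ± 1.12), with edgeR adjusted p of 0.0178, 0.0219, 0.0258 and 0.0272 in that order. Their median levels in tumours were 5.09, 3.63, 5.94 and 0.987 CPM, against 0.231, 0, 0.352 and 0 CPM in controls. The dog 61478 library was the highest control for the first 3 of them, and without it their log2 fold changes were 3.96, 5.50 and 3.98. Each of the 4 lost its call without some libraries. The adjusted p of the chromosome 28 gene was 0.0503 without the control of dog 47198 and 0.0855 without the tumour of dog 50416, where its log2 fold change was 2.47. That of the chromosome 30 gene was 0.0586 without the control of dog 47198 and 0.0677 without the tumour of dog 51234. For the chromosome 21 gene it was 0.0565, 0.0595 and 0.0608 without the controls of dogs 43323, 47198 and 50276, and 0.105 without the tumour of dog 50416, where the log2 fold change was 2.28. For the chromosome 11 gene it was 0.0569, 0.0556 and 0.0698 without the controls of dogs 36808, 43323 and 47198, and 0.193 without the tumour of dog 50416. That tumour held 29 of the 47 counts of this gene in tumours, and without it the tumour mean was 0.903 CPM and the log2 fold change 2.84.

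**Figure D4:**
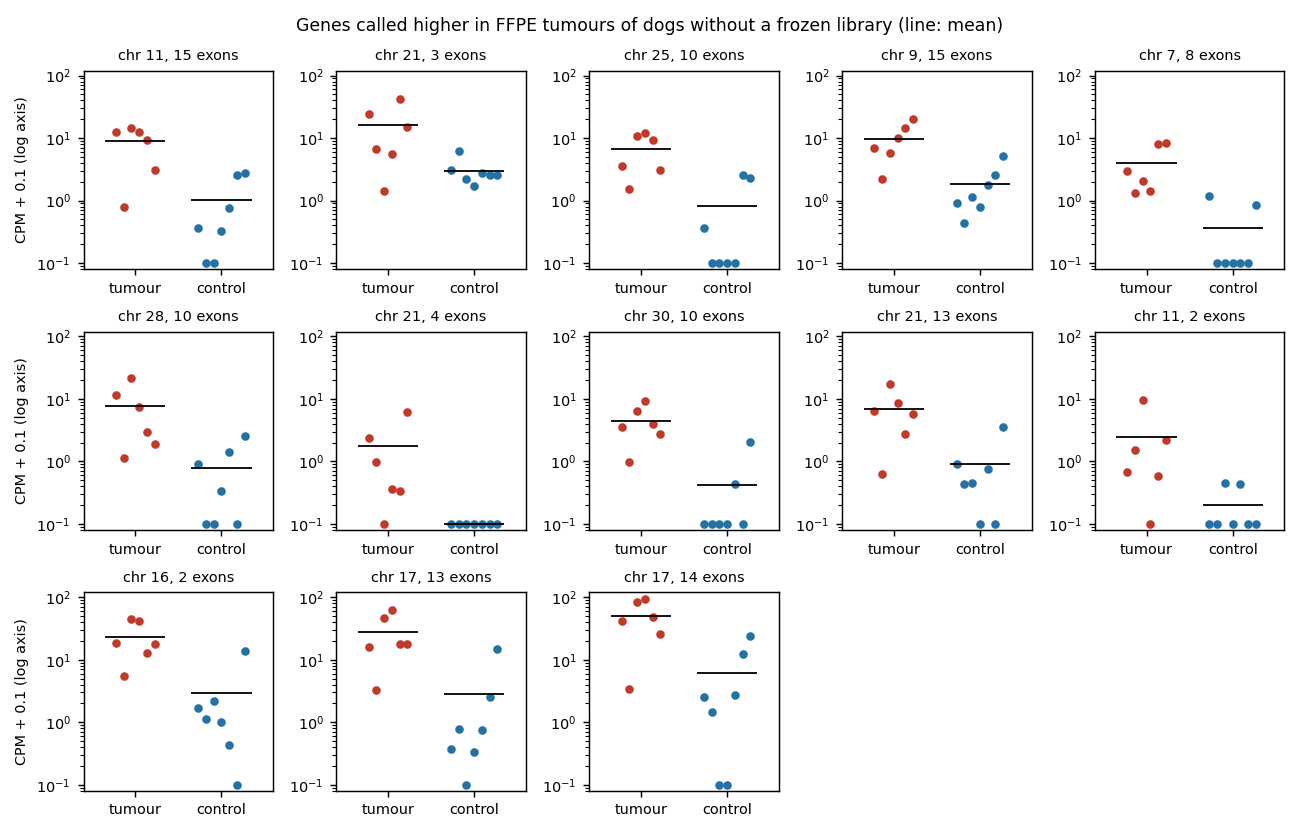
CPM + 0.1 (log axis) of the 13 genes called higher with or without the filter, in 6 FFPE tumours (red) and 7 FFPE controls (blue) of dogs without a frozen library, with each panel titled by chromosome and number of exons and lines at the group means. In most panels 1 or 2 controls reach into the range of the tumours, and the gene on chromosome 7 is the only one without overlap.

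Genes that did not pass included some of the highest in frozen tumours. The gene at chr30:28835811 averaged 47.2 ± 47.9 CPM in FFPE tumours and 7.37 ± 16.5 CPM in FFPE controls (SD, n = 6 and 7; edgeR adjusted p = 0.287 with no filter). The genes at chr8:30994402 and chr32:17121968 averaged 15.9 ± 13.9 and 10.4 ± 11.4 CPM in tumours, against 3.34 ± 6.22 and 3.74 ± 7.66 CPM in controls (adjusted p = 0.264 and 0.465 in the same edgeR fit). For the 3 genes the standard deviation of the controls exceeded their mean, and the control of dog 61478 decided the outcome. Without it all 3 rose in the fit with no filter, with log2 fold changes of 6.34, 4.36 and 3.21 and edgeR adjusted p of 0.00665, 0.00244 and 0.00953. Of the 43 genes not called with all libraries, 18 were called without that control. Over all genes 3.36% were called higher without it, against 1.53% with all libraries. The fitted change was negative, and not called, for the genes at chr4:29430127 (log2 fold change -1.69), chr29:23732339 (-0.87) and chr32:24272035 (-0.31). These values moved with single libraries, and for the third the sign did too. Without the control of dog 61478 the fitted changes were -0.37, -0.70 and 0.55 in the same order, and without the controls of dogs 61478 and 50315 they were 0.46, -0.38 and 0.50. Without the tumour of dog 51234 the second was -2.53. The first of these genes, the most even one in frozen tumours, averaged 2.28 ± 2.59 CPM in FFPE tumours and 7.94 ± 11.9 CPM in FFPE controls.

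In 1 tumour the 54 genes were split at 1 CPM, a cut through a continuous range. In the frozen tumour of dog 60679, of grade II, 23 of them were under 1 CPM while 31 were not. The genes nearest to the cut had 0.984 and 1.14 CPM. The split was made after these values were seen, and it follows the selection in part. The 23 genes summed to 7.04 CPM in that tumour, against 74.5 to 416 CPM in the other 5 frozen tumours, while the other 31 summed to 127 CPM, against 54.7 to 373 CPM. The FFPE library of the same tumour gave 8.86 CPM and was the lowest of the 5 FFPE tumours of dogs with both libraries for 21 of the 23 genes. Of the other 31 genes it was the lowest for 4. It is a second library of the tumour that defined the split, so low values there were likely and are no independent check. The share over all genes in which it was the lowest is not given here.

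In the FFPE tumour of dog 44331, of grade III, the set as a whole was low. The other 31 genes summed to 54.7 CPM there, against 198 to 288 CPM in the other 5 tested tumours. The 23 genes summed to 32.8 CPM, against 179 to 468 CPM in the other 5 tested tumours, and it was the lowest of the 6 for 21 of the 23, against 12 of the other 31 genes. Over 6773 comparable genes that tumour was the lowest in 18.5%. The highest value came from the tumours of dog 51234 (grade II) or dog 50416 (grade III) for 16 of the 23 genes and for 11 of the other 31. Over genes outside the set these tumours also had the highest positions of the tested tumours, at 1.07 and 0.98. The tumour mean exceeded the control mean in the test groups for 23 of the 23 genes and for 27 of the other 31, against 50.2% of all genes. Without the filter 6 and 5 genes were called higher, where 1.53% of all genes were. The median log2 fold changes were 2.56 and 1.77. The difference between the 23 and the 31 was not tested. The 23 genes had a median of 10 exons and 2319 bp of exonic sequence, and the 31 a median of 7 exons and 1829 bp.

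**Figure D5:**
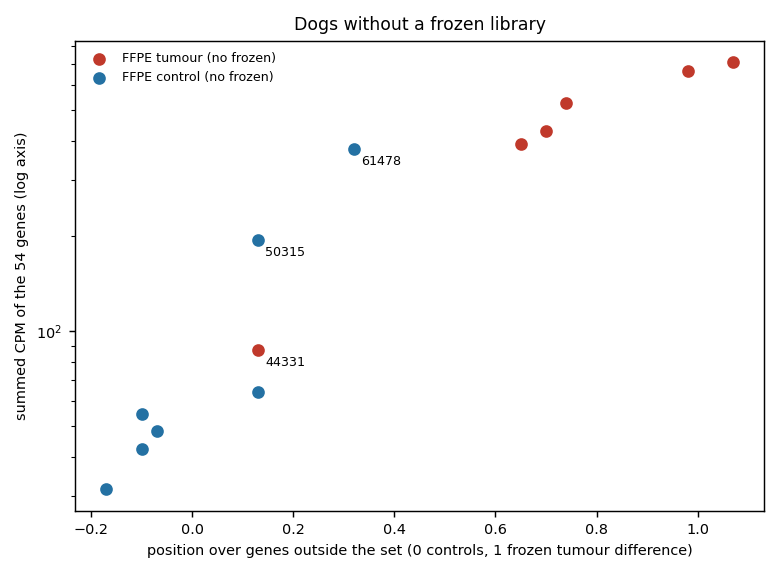
Summed CPM of the 54 genes (vertical, log axis) against the position of each library over 14412 genes outside the set (horizontal; 0 is the mean of the FFPE controls and 1 the shift between frozen tumours and controls), for 6 FFPE tumours (red) and 7 FFPE controls (blue). The tumour of dog 44331 lies at 0.13 among the controls, and the control of dog 61478 lies nearest to the tumours, at 0.32.

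For the libraries at the extremes, the sum of the set went with the position over genes outside it. That position is measured along the wider shift between fresh-frozen tumours and controls, and the set was selected on the same comparison. A library high in one was therefore likely to be high in the other, and the link is given as a description only. The tumour with the lowest sum, dog 44331, had the lowest position (0.13), and the control with the highest sum, dog 61478, the highest position of the controls (0.32). The control of dog 50315 had a sum of 194 CPM from only 79 counts, at a position of 0.13. The part of this wider shift and of depth in the results on the set was not tested.

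Dogs with both kinds of library were used in the selection through their frozen tissue, so the comparison within dogs carries no test. The FFPE sums were 124, 267, 320, 165 and 599 CPM in the tumours of dogs 60127, 60461, 60636, 60679 and 60749, and the ratio of the FFPE to the frozen sum was 0.504, 0.649, 2.47, 1.23 and 0.937 in the same order. In the controls of dogs 60126, 60460 and 60462 the FFPE sums were 9.73, 24.3 and 231 CPM, and the ratios 0.989, 2.59 and 12.6. In dog 60462, 43 of the 54 genes reached 1 CPM in the FFPE library and 0 in the frozen one, so the fixed control of this dog did not show the near silence by which the genes had been selected. In dog 60126 no gene reached 1 CPM in either library. Without dog 60462, 42 of the 54 genes averaged under 0.5 CPM over the FFPE controls of dogs 60126 and 60460. With the mean over the 3 FFPE controls, 14 of the 54 genes were under 0.5 CPM, and with their counts pooled, in which the deeper libraries weigh more, 38 were.

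Between breeds, 4 Boxer and 6 French Bulldog FFPE tumours were compared over all genes. They included the tumours of dogs 60461, 60636, 60679 and 60749, whose frozen tissue was used in the selection. In edgeR no gene of 13873 was called at an adjusted p under 0.05 (0% higher, 0% lower), and 283 had an unadjusted p under 0.05. Of the 54 genes 46 could be tested, with 0 called and, at an unadjusted p under 0.05, 1 higher and 0 lower. The DESeq2 fit had 0 calls as well; its unadjusted p was under 0.05 for 381 genes, 1 higher and 2 lower of them in the set. The median log2 fold change of the 46, Boxer over French Bulldog, was 0.29. In edgeR without the dogs used in the selection, 40 of the 54 genes could be tested, with 0 called there and 0 among all 13146 genes. These counts do not show that the breeds are alike, since tumours within a breed differed several-fold.

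The genes were spread over the genome. Of the 24 chromosomes considered, 19 carried at least 1 of them, from 1 to 7 per chromosome, with 7 on chromosome 24, where they were 2.22% of the expressed genes of the same kind, and 5 on chromosome 25 (2.01%). On the plus strand lay 33 genes and on the minus strand 21. They had a median of 9 exons, against 12 for the 6546 expressed genes, a median exonic length of 1925 bp, against 2243 bp, and a median span of 13410.5 bp, against 34010 bp. For 5 genes exon bases were shared with a gene on the opposite strand, at chr8:30994402, chr32:17121968, chr24:32612386, chr24:33128335 and chr32:24272035, and counting used the strand.

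There were 6 pairs of neighbours within 1 Mb, 3 of them on chromosome 24. The closest pair lay on chromosome 25, with a plus-strand gene at chr25:29751848-29781300 and a minus-strand gene at chr25:29787132-29811112, 5831 bp apart with their 3′ ends facing and no annotated gene between. Both were high in frozen tumours, with 5.62 ± 3.81 and 13.7 ± 10.6 CPM, against 0.183 ± 0.336 and 0.439 ± 0.504 CPM in frozen controls. In the FFPE test groups they averaged 8.07 ± 6.18 and 18.3 ± 16.2 CPM in tumours, against 1.51 ± 3.75 and 2.68 ± 6.15 CPM in controls, and neither passed the edgeR test with no filter (adjusted p = 0.293 and 0.226). Without the control of dog 61478 both passed, with log2 fold changes of 5.71 and 5.39 (adjusted p = 0.000228 and 0.000563). A second close pair, at chr28:13807720-13813849 and chr28:13873727-13875486, 59877 bp apart, had the lowest frozen control levels of the set, at 0.0225 ± 0.0355 and 0.00858 ± 0.0210 CPM, beside 4.34 ± 3.74 and 2.23 ± 1.81 CPM in frozen tumours.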

How the data were processed

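RNA of 33 FFPE or frozen brain samples was sequenced from stranded (forward) libraries with molecular identifiers of 12 nt, per the labels' protocols. It is unknown here if copies of a molecule were collapsed. The deposited table holds counts, fragments per gene without scaling, which the authors made with featureCounts 1.6.0 on CanFam3.1 and Ensembl release 100 at a mapping quality of at least 10 with strand option 1, per the file headers. Fragments of several genes were not counted. Per the submitters' processing notes, fastp and STAR were also used.

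CPM values were counts over column totals. The test groups were fitted by the quasi-likelihood F test of edgeR 4.0.16 under R 4.3.3, after filterByExpr and with TMM factors and robust dispersions, and with Benjamini-Hochberg adjustment at 0.05. The SE is the log2 fold change over the square root of F. Alternatives used DESeq2 1.42.0, limma 3.58.1 voom, other scaling and filters, breed as a covariate and other sets of libraries. Nothing states whether same-group samples differ in handling beyond the dog, and p-values measure the spread between dogs. Intervals from counts of 0 (floor of 3 counts) cover counting error only. Replicates of a group were not copies of each other: the chi-square per degree of freedom was at least 19.0 in 79 pairs. On simulated counts for 13132 genes, the filtered fit of the test groups recovered 4.08% of 2-fold, 76% of 4-fold and 98% of 8-fold increases. There were 3 false calls. Simulated counts need not share the spread of the real libraries, some of which stood apart from their groups. These shares are therefore not the power for the set. In the filtered fit of the real counts, the 20 set genes tested had a median log2 fold change of 2.24, and 25% were called higher.

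The members and lists were chosen with earlier results of these data known. The files and the RefSeq table (assembly UU_Cfam_GSD_1.0) paired 0 identifiers with a name, so the planned pathway lists and cell type markers were not used here, the tissue labels were not checked against markers, and no gene name or role is given. Named genes were the 20 highest in frozen tumours, those called in the test groups, those nearest to a threshold and the 3 most and 3 least variable, given by position on CanFam3.1 except 2 identifiers. The genes called only without the filter, those with a negative fitted change and the neighbouring pairs were added after their values were seen.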

Additional observations from a re-analysis of the deposited data

Results flagged for a closer look

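A library was picked out where its distance to the nearest other library of its group was large relative to the range of the group. This was asked of 35 groups of values, and 10 were picked. A rate by chance of about 1 in 20 would hold only for independent, normally distributed values. CPM values are skewed, each pick was the highest library of its group, and the same libraries recur. The number picked can therefore not be set against that rate. For counts of the 54 genes at 1 CPM or more, the FFPE control of dog 61478 had 46, with 22 in the next control, and the frozen control of dog 60516 had 11, with 1 in the next. The control of dog 61478 was also picked for the genes at chr16:21903421 (13.7 CPM, next 2.11) and chr17:36932810 (14.6 CPM, next 2.46). The frozen control of dog 60516 was also picked for the genes at chr17:36932810 (1.44 CPM, next 0.353) and chr17:7104961 (1.51 CPM, next 0.379). The gene at chr16:21903421 stood out at 19.6 CPM in the frozen tumour of dog 60749 (next 6.20) and at 0.823 CPM in the frozen control of dog 60126 (next 0.392). The gene at chr9:18551373 had 13.1 CPM in the frozen tumour of dog 60631 (next 3.79). The gene at chr21:22051920 had 6.11 CPM in the FFPE control of dog 43323 (next 2.94).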

How the results depend on the processing

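In the test groups the filtered edgeR fit called 5 genes of the set higher, with 526 higher and 724 lower among all genes. The 3 counts were 9, 1314 and 1165 with DESeq2, 16, 1694 and 1827 with limma voom, and 3, 223 and 399 without the grade II tumour of dog 51234. Each of these fits tested 20 genes of the set, and called 4.01%, 10%, 12.9% and 1.68% of all genes higher in that order. With the 8 dogs of the selection groups that also had an FFPE library, the counts were 9, 1342 and 1477 (26 of the set tested, 10.1% of all genes higher). The counts were 11, 408 and 611 with no filter and 11, 429 and 660 with at least 10 counts in all. Both tested all 54 genes, with 1.53% and 2.19% of all genes higher. Alternatives added after seeing the data kept no filter. Of these, DESeq2 gave 19, 1324 and 1217 (49 of the set tested, 8.41% of all genes higher). Leaving out the tumour of dog 44331 gave 17, 932 and 1503 (all 54 tested, 3.53%). Calls higher, in the set and over all genes, were 29 and 890 without the control of dog 61478, 12 and 340 without that of dog 50315, and 31 and 864 without both. Leaving out 1 library at a time, with the filter and, for the libraries not named so far, without it, gave 1 to 14 calls higher in the set, 156 to 1177 higher and 331 to 1520 lower over all genes. With the filter, 11 to 26 genes of the set were tested. No gene of the set was called lower in any of these fits, and the breed comparison had 0 calls in all of its alternatives. No direction reversed among the 14 named genes that passed the filter. With no filter, 5 of the 54 genes changed sign when 1 library was left out, among them the uncalled gene at chr32:24272035 (-0.31, and 0.55 without the control of dog 61478), and 9 of the 11 calls were lost without some library. The causes of the moves were not tested. No paired analysis was possible because the tumour and control groups compared share no dog, and the FFPE and frozen libraries of 1 dog were compared without a test. CPM on TMM-scaled totals also selected 54 genes, 52 of them shared. Shallow FFPE controls, down to 406406 counts, limit what can be said of genes near 1 CPM.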
